A study of Mus musculus with 2 samples.

Results

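Guanylate-binding proteins (GBPs) and immunity-related GTPases (IRGs) are the large and the mid-sized dynamin-like GTPases that mouse cells make in response to interferons. The 10 genes described here are *Gbp2*, *Gbp3*, *Gbp4*, *Gbp5*, *Gbp7*, *Igtp*, *Irgm1*, *Irgm2*, *Iigp1* and *Ifi47*. They were chosen by symbol from these families, with earlier results of these data known, and are 10 of the 32589 genes listed in the count tables.

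The study grew cholangiocarcinoma (CCA) in mouse liver by hydrodynamic tail vein injection (HDTVI) of plasmids coding for the Notch1 intracellular domain and myristoylated AKT. Both groups carried doxycycline-inducible shRNAs against *Yap1* and *Wwtr1* (shYT), the genes for YAP and TAZ, expressed throughout the body from a CAG-rtTA3 driver and induced on day 25. One group received PBS (shYT_PBS). The other received the anti–PD-1 antibody RMP1-14 on days 26, 29 and 32 (shYT_antiPD1), and tumor-bearing livers of both were digested on day 33 for single-cell RNA-seq with the Singleron GEXSCOPE kit. Each group is 1 library, so the difference between groups had no replicate check and was not tested, and a treatment effect and a difference between these 2 libraries cannot be told apart. The labels do not give the number, age, sex or strain of the animals behind a library. The study states that mice of both sexes were used, and gives a group size without saying whether a library pooled several mice. The shRNAs were present in both libraries, so depletion of YAP/TAZ was not compared; in the tumor or biliary epithelial gate described below, the level of *Yap1* was 9.62 CPM with PBS and 11.9 CPM with anti–PD-1, and that of *Wwtr1* was 12.5 CPM and then 7.27 CPM. Wherever a pair of values is given, the first is of the PBS library.

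GBPs and IRGs are known for cell-autonomous defense, in which they gather on membranes that enclose pathogens and help to disrupt them. GBPs are also known to promote inflammasome activation. Among the IRGs, *Irgm1*, *Irgm2* and *Igtp* (also called *Irgm3*) code for regulators that sit on the membranes of a cell's own organelles and hold the effectors inactive there, and *Iigp1* (*Irga6*) is an effector that loads onto the vacuole membrane. Interferon gamma (IFN-γ), made mainly by T and NK cells, acts on GAS elements of their promoters, and type I interferons act through ISRE elements. The presence of a motif does not tell which interferon acted on a gene.

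The PBS and anti–PD-1 libraries held 19397 and 19451 cell barcodes with 121713441 and 100807037 unique molecular identifiers (UMIs, each a counted transcript). Limits of 500 to 5000 genes per cell and of 10% for UMIs from mitochondrial genes left 15531 and 16360 cells, with medians of 3159 and 2990 UMIs. The libraries shared 145 barcodes among these cells. Over the kept cells, *Xist*, a transcript of female cells, was counted 18452 times with PBS and 11 times with anti–PD-1, and Y-linked genes 3113 and 15323 times, so the PBS library held cells of both sexes and the anti–PD-1 library almost only cells of males. The summed level is therefore given below also for male cells, meaning those in which a Y-linked gene but not *Xist* was counted. In the PBS library these can include female cells in which *Xist* was missed and Y-linked RNA came from other cells. PBS neutrophils, for example, had 118 *Xist* UMIs over 706 cells.

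Cells were placed in a class when they had UMIs of at least 3 of its marker genes and the share of its markers detected was at least 2 times that of any other class. No member gene served as a marker. This placed 10147 and 9601 cells, and 12 classes had at least 50 cells in both libraries. Cells with exactly 3 markers of their class, the minimum, made up 6.45% and 6.03% of the cells in these 12 classes. They were unevenly spread, with 216 of 836 and 128 of 451 cells in the tumor or biliary epithelial gate. Among macrophages without a UMI of *Clec4f* they were 62 of 2479 and 129 of 859, and among NK cells 56 of 210 and 28 of 211. The median cell held 4 to 8 markers of its own class with PBS and 4 to 7 with anti–PD-1. Of 168 medians for markers of other classes in each library, 24 and 25 were above 0, the highest being 3 macrophage markers in PBS monocytes, so the gates are ranges of a score and not pure types. Genes kept out of the gates followed the names in most but not all cases. *Krt18* was at 2777 and 2274 CPM in tumor or biliary epithelial cells and at no more than 138 CPM in any other of the 12 classes. *Pecam1* reached 1366 and 1231 CPM in endothelial cells against 125 CPM or less elsewhere, and *Loxl1*, a collagen cross-linking enzyme, was at 764 and 718 CPM in cancer-associated fibroblasts (CAFs). *Timd4*, a marker of resident Kupffer cells, was at 298 and 390 CPM in the Kupffer gate and at 28.6 CPM or less elsewhere. Neutrophils had *S100a9* at 37648 and 37923 CPM, NK cells *Klrk1* at 1161 and 760 CPM and B cells *Cd22* at 416 and 379 CPM, each highest in its own class, and *Cd2* was highest in the 3 T cell classes. Other genes were high in a gate of another name. The tumor or biliary epithelial gate held the hepatocyte gene *Ttr* at 1047 and 1296 CPM and *Lcn2*, listed for neutrophils, at 1095 and 1265 CPM. *Fn1*, listed for monocytes, was at 2528 and 2489 CPM in CAFs, and *Ly6c1*, also listed for monocytes, was at 1.59 and 7.74 CPM in the monocyte gate and at 450 CPM in endothelial cells with PBS.

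In the GENCODE vM21 annotation of mm10, *Gbp5*, *Gbp7*, *Gbp3* and *Gbp2* stand in this order on the plus strand of chromosome 3 within 144 kb. *Gbp5* covers chr3:142493978-142522344, *Gbp7* chr3:142530342-142550149, *Gbp3* chr3:142560026-142573209 and *Gbp2* chr3:142620602-142638008. *Gbp4* lies apart, at chr5:105115767-105139586 on the minus strand, and overlaps *Gbp8* and *Gbp9* on the same strand. Of the IRGs, *Irgm1* (chr11:48861968-48871683, minus strand), *Ifi47* (chr11:49076587-49096974, plus strand) and the overlapping pair *Igtp* (chr11:58199556-58207591, plus strand) and *Irgm2* (chr11:58199618-58222782, plus strand) lie on chromosome 11, and *Iigp1* lies on the plus strand of chromosome 18. Reads from near the 3′ end cannot be assigned with the same certainty for all of them. Of the 50-base stretches in the last 500 bases of its transcripts, *Gbp4* shared 14.2% with other genes, mostly neighboring GBPs, *Ifi47* 4.54% with *Olfr56*, *Gbp2* 3.55% with *Gbp2b* and *Gbp3* 2.74% with *Gbp7*. *Irgm1* shared 1.99% and *Gbp5* 0.432%, and *Gbp7*, *Igtp*, *Irgm2* and *Iigp1* shared none. The values of *Gbp4* are the least certain of the 10 on this count.

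Promoter sequences are shown because the members' levels moved together in many classes and because these are the stretches through which interferons are known to act. RefSeq promoters of build GRCm38.p6, which run from 250 bases before to 50 after a transcript's start, were found for 8 members, the others being *Gbp4* and *Iigp1*. RefSeq starts can differ from the GENCODE gene bounds given above. Of the stretches printed below, those of *Irgm2* and *Irgm1* lie inside the GENCODE gene, and that of *Gbp2* overlaps it. Both strands were searched for the ISRE core (GAAA, any 2 bases, GAAA, or TTTC, any 2 bases, TTTC on the other strand) and for GAS (TTCNNNGAA), and the 2 motifs may share bases. The ISRE core was present in 7 of the 8 members with a promoter and GAS in 4, against 3.99% and 9.55% of the 27025 genes with a promoter in the table, counted likewise over all promoters of a gene (3.44% and 8.3% of 32851 single promoters). All 4 with GAS also held the ISRE core, a pair present in 0.614% of genes. Matches are in capitals in these lines, written 5′ to 3′ on the gene's strand.

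Gbp2, chr3:142620543-142620662, plus strand: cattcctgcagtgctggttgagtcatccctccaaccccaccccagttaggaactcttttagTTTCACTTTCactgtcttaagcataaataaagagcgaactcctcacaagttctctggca
Gbp7, chr3:142530216-142530335, plus strand: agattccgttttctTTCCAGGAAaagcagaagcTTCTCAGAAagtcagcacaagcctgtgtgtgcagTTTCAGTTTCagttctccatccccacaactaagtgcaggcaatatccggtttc
Igtp, chr11:58199436-58199555, plus strand: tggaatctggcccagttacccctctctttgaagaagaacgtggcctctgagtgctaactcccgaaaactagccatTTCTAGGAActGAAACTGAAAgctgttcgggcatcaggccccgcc
Irgm2, chr11:58214857-58214976, plus strand: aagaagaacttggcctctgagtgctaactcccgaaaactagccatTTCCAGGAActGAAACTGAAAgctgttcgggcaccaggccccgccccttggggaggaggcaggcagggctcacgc
Irgm1, chr11:48871421-48871540, minus strand: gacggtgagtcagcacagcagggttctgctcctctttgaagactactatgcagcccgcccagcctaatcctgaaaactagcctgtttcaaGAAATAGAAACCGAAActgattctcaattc
Ifi47, chr11:49076467-49076586, plus strand: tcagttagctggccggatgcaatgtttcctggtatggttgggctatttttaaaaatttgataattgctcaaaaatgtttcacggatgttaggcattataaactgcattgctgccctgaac

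*Igtp* and *Irgm2* carried GAS followed after 2 bases by the ISRE core, and these 21 bases differed at 1 position between the 2 genes. The same arrangement was found in 5 of the 32851 promoters (0.0152%), those of *Igtp*, *Irgm2*, *Tgtp1*, *Tgtp2* and *Gm12185*, all IRG genes. It was searched for after it had been seen in *Igtp* and *Irgm2*. In *Irgm1* a pair of ISRE cores overlapped, with their last bases 21 and 15 bases before the start. *Ifi47* held neither motif in this window.

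The level of the 10 genes together, as summed UMIs per 1000000 UMIs of a class (CPM), was higher in the anti–PD-1 library in all 7 classes of tumor, stromal and myeloid cells. In tumor or biliary epithelial cells (836 and 451 cells) it was 114 CPM with PBS and 1205 CPM with anti–PD-1, a 10.6-fold difference. In endothelial cells (404 and 60 cells) it was 739 and 6031 CPM, or 8.17-fold. Among these 12 classes, endothelial cells thus stood highest with anti–PD-1, and tumor or biliary epithelial cells lowest with PBS. CAFs (369 and 129 cells) were at 423 and 1558 CPM, a 3.68-fold difference. Macrophages without a UMI of *Clec4f* (2479 and 859 cells) were at 468 and 1918 CPM, and Kupffer cells, which had one (1257 and 2034 cells), at 515 and 1903 CPM, differences of 4.10-fold and 3.70-fold. Monocytes (109 and 83 cells) were at 459 and 2335 CPM and neutrophils (706 and 1612 cells) at 471 and 2239 CPM, or 5.09-fold and 4.76-fold.

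Among lymphocytes, CD8 T cells (713 and 984 cells) were at 940 CPM in both libraries, a ratio of 1.00 with a 95% interval of 0.95 to 1.05. NK cells (210 and 211 cells) were at 836 and 753 CPM, a ratio of 0.90 (0.79 to 1.03). The intervals of these 2 classes include equality. Among male cells alone the ratio was 0.811 in CD8 T cells and 0.739 in NK cells. With RNA estimated to come from other classes taken off, the ratios were 0.898 and 0.764. Whether the libraries were equal in these classes was not tested. CD4 T cells (698 and 741 cells) stood at 844 and 1125 CPM and other T cells (1098 and 834 cells) at 1066 and 1326 CPM, or 1.33-fold (1.27 to 1.41) and 1.24-fold (1.19 to 1.30). B cells (894 and 1454 cells) were at 359 and 599 CPM, or 1.67-fold (1.53 to 1.82), so these 3 classes were also higher with anti–PD-1. In the PBS library T and NK cells stood above all other classes, and with anti–PD-1 they stood below CAFs, endothelial cells and all 4 myeloid classes. Intervals here and below are exact and cover counting error in these libraries only.

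**Figure D1:**
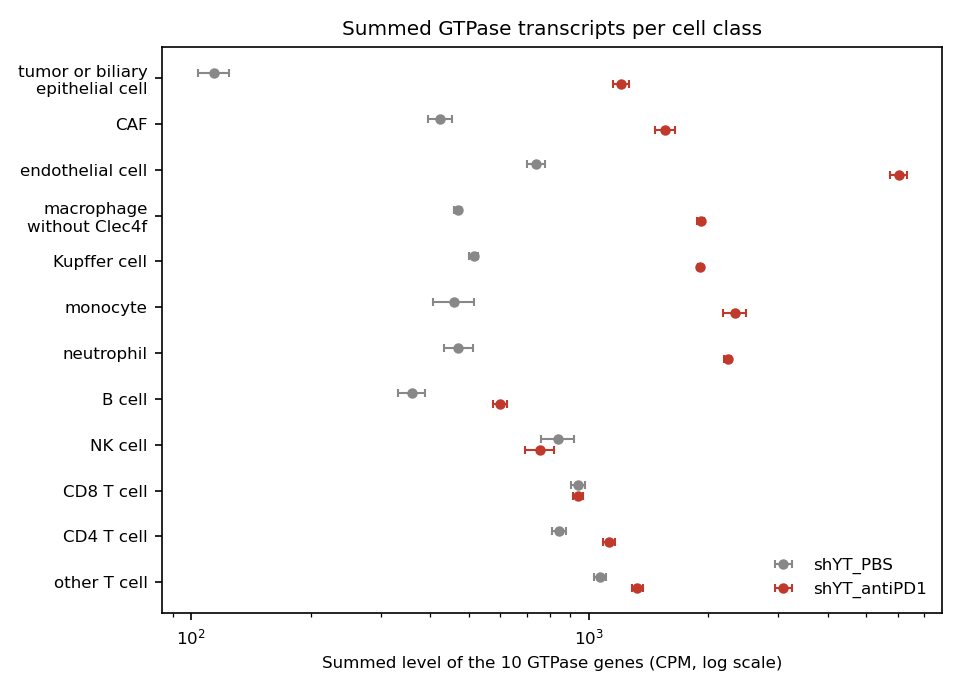
Summed level of the 10 GTPase genes in each of 12 cell classes, on a log axis in CPM, in the shYT_PBS library (grey) and the shYT_antiPD1 library (red). Points are class sums of 1 library each and bars are exact 95% Poisson intervals. The red points lie far to the right of the grey ones in the 7 upper classes, from 1205 to 6031 CPM, and the points of CD8 T cells coincide at 940 CPM.

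Gene by gene, a member was counted as at least 2-fold higher where the log2 ratio of CPM plus 5 was 1 or more. All 10 members reached this in tumor or biliary epithelial cells, where 3.50% of the genes tested did, in CAFs (4.30%), in endothelial cells (6.09%) and in macrophages without *Clec4f* (4.72%). In CAFs with at most 1 marker of any other class (140 and 32 cells) the log2 ratio of *Gbp7* was −0.39. Of the members 7 reached 2-fold there, with no share of all genes computed beside them. Of the 10, 9 did so in Kupffer cells (2.69%), in monocytes (7.14%) and in neutrophils (2.94%), and the exception in each was *Irgm2*. In B cells 4 did (1.99%). In each of NK cells (4.25%), CD8 T cells (2.05%), CD4 T cells (2.27%) and other T cells (2.33%) 1 did. None was 2-fold lower in any of the 12 classes. Of all tested genes 2.64% were so in tumor or biliary epithelial cells, 3.27% in CAFs, 7.64% in endothelial cells, 0.589% in macrophages without *Clec4f*, 0.351% in Kupffer cells, 9.27% in monocytes and 7.52% in neutrophils. The share was 2.27% in B cells, 8.05% in NK cells, 1.32% in CD8 T cells, 1.24% in CD4 T cells and 1.28% in other T cells. The median log2 ratio of the members was 2.71 in tumor or biliary epithelial cells, 2.77 in endothelial cells and between 1.64 and 2.17 in the other 5 non-lymphoid classes, while the median of all tested genes lay between −0.32 and 0.00 in these 7 classes. In lymphocytes the members' median ran from −0.13 in NK cells to 0.61 in B cells.

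**Figure D2:**
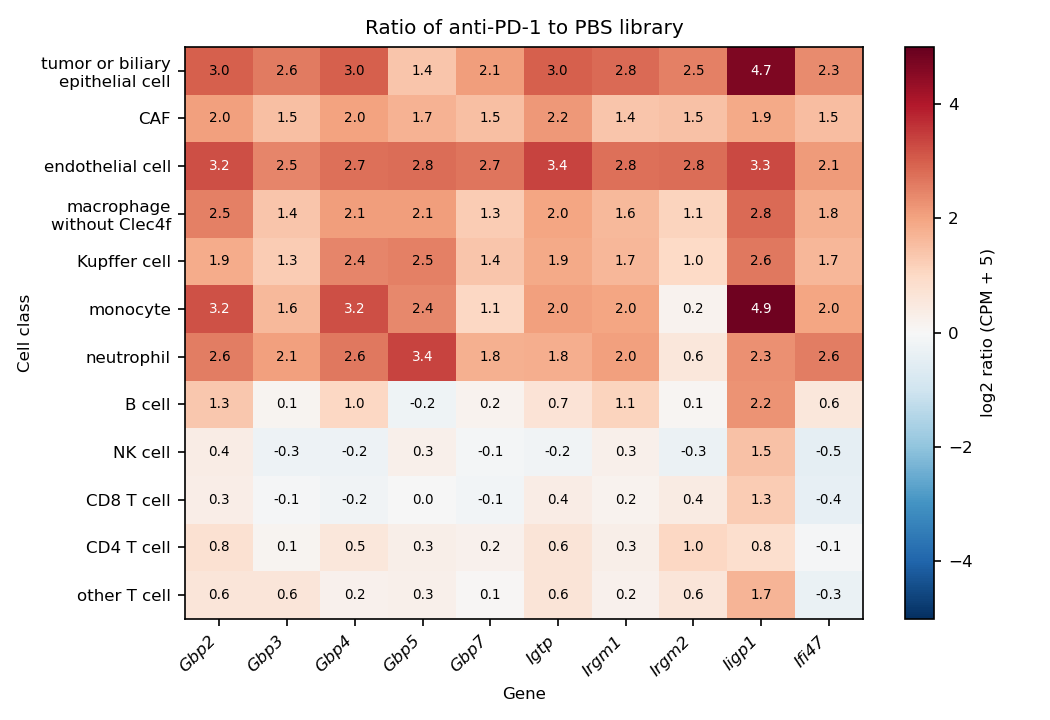
Log2 ratio of CPM plus 5, anti–PD-1 over PBS library, for each of the 10 genes (columns) in 12 cell classes (rows), with red for higher in the anti–PD-1 library and blue for lower. *Iigp1* in monocytes and in tumor or biliary epithelial cells has the darkest cells, *Irgm2* is pale in monocytes and neutrophils, and the 4 rows of NK and T cells are pale, with *Iigp1* the darkest in 3 of them and *Irgm2* in CD4 T cells.

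Of the GBPs, *Gbp2* is an effector that is known to bind vacuole membranes. In tumor or biliary epithelial cells it was at 3.85 and 65.5 CPM, 17.0-fold higher (9.97 to 30.9). Endothelial *Gbp2* was at 67.6 and 680 CPM, or 10.1-fold (8.03 to 12.6), and monocyte *Gbp2* at 49.4 and 482 CPM, or 9.77-fold (6.66 to 14.8). Neutrophil *Gbp2* stood at 116 and 703 CPM (6.08-fold). The smallest of its non-lymphoid differences was in Kupffer cells, at 65.4 and 250 CPM (3.82-fold, 3.53 to 4.13). CD8 T cells had 61.2 and 78.5 CPM, which was 1.28-fold (1.06 to 1.56).

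*Gbp5*, which is known to promote NLRP3 inflammasome activation, differed most in neutrophils, at 10.5 and 156 CPM (14.8-fold, 8.40 to 28.8). It was also 7.02-fold higher in Kupffer cells (18.5 and 130 CPM) and 8.36-fold higher in endothelial cells (19.8 and 166 CPM). In tumor or biliary epithelial cells the difference rested on 4 and 16 UMIs and had an interval of 3.55 to 45.2. No class of lymphocytes had a *Gbp5* ratio whose interval left out 1.

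*Gbp4* was at 105 and 731 CPM in endothelial cells (6.94-fold), at 26.1 and 162 CPM in Kupffer cells (6.21-fold) and at 12.7 and 160 CPM in monocytes (12.6-fold, 5.99 to 30.4). Its levels in T and NK cells were already high in the PBS library, 153 CPM in CD8 T cells and 170 CPM in NK cells, and with anti–PD-1 they were 135 and 144 CPM. The intervals of the last 2 ratios, 0.780 to 1.01 and 0.627 to 1.14, included 1.

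By the ratio of CPM, the neighbors *Gbp3* and *Gbp7* differed less than *Gbp2* in 6 of the 7 and in all 7 non-lymphoid classes, respectively, the exception being *Gbp3* in tumor or biliary epithelial cells. There *Gbp3* was at 1.68 and 35.7 CPM, 21.2-fold higher with an interval of 9.62 to 55.3. In Kupffer cells *Gbp3* was at 76.2 and 189 CPM (2.47-fold) and *Gbp7* at 78.1 and 212 CPM (2.71-fold). In endothelial cells the ratios were 6.10 for *Gbp3* (37.1 and 227 CPM) and 6.65 for *Gbp7* (89.0 and 592 CPM). In CD8 T cells *Gbp7* stood at 152 and 138 CPM and *Gbp3* at 40.8 and 38.8 CPM, and both intervals included 1.

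Of the regulatory IRGs, *Igtp* showed its largest difference in endothelial cells, at 52.9 and 605 CPM (11.4-fold, 8.94 to 14.7). In tumor or biliary epithelial cells it was at 22.6 and 214 CPM (9.48-fold) and in Kupffer cells at 41.5 and 168 CPM (4.04-fold). All T cell classes had somewhat more *Igtp* in the anti–PD-1 library. The ratios were 1.30 (1.14 to 1.48) in CD8 T cells, 1.58 (1.39 to 1.79) in CD4 T cells and 1.57 (1.41 to 1.75) in other T cells.

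*Irgm1*, a regulator also tied to autophagy, was at 37.3 and 293 CPM in tumor or biliary epithelial cells (7.86-fold), at 91.6 and 649 CPM in endothelial cells (7.09-fold) and at 72.7 and 316 CPM in neutrophils (4.35-fold). CAFs showed its smallest non-lymphoid difference, at 57.9 and 159 CPM (2.75-fold, 2.10 to 3.61). It was one of the 4 members that were at least 2-fold higher in B cells, at 51.8 and 116 CPM (2.25-fold, 1.80 to 2.83). In B cells it fell short with 20 CPM added and with RNA estimated to come from other classes taken off, when 1 member was left in each case.

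*Irgm2* had the smallest ratio of the 10 in macrophages without *Clec4f*, Kupffer cells, monocytes and neutrophils. In Kupffer cells it was at 35.2 and 74.1 CPM, a ratio of 2.11 (1.89 to 2.36) that fell just short of the count with 5 CPM added. In neutrophils it was at 62.2 and 93.9 CPM (1.51-fold, 1.16 to 1.98), and in monocytes at 33.4 and 38.7 CPM, from 21 and 15 UMIs, with an interval of 0.555 to 2.36. In endothelial and in tumor or biliary epithelial cells, in contrast, *Irgm2* was 7.74-fold (37.1 and 288 CPM) and 7.16-fold higher (16.4 and 117 CPM). The member that was 2-fold higher in CD4 T cells was also *Irgm2*, at 28.6 and 63.1 CPM (2.21-fold, 1.69 to 2.91). There it fell short with 20 CPM added, without an upper limit on detected genes, and with RNA estimated to come from other classes taken off.

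*Iigp1* was at least 2-fold higher in 11 of the 12 classes, against 5 to 8 for each other member. It was so in 9 with 20 CPM added, NK and CD8 T cells falling short, and in 8 once the RNA of other classes, estimated from their markers in a gate, was taken off, neutrophils falling short too. In tumor or biliary epithelial cells it was at 5.29 and 257 CPM, from 22 and 388 UMIs, 48.5-fold higher (31.6 to 78.3). Monocytes had 3 and 108 UMIs, or 4.78 and 279 CPM, a ratio of 58.3 with a wide interval of 19.4 to 287. Endothelial cells had the most *Iigp1* of the 12 classes in both libraries, 178 and 1813 CPM (10.2-fold, 8.91 to 11.7). CAFs stood next of the 12, at 135 and 519 CPM (3.84-fold). The few cells in the hepatocyte gate, 39 and 5, had more *Iigp1* than either, 304 and 3622 CPM from 36 and 104 UMIs. Neutrophils had little *Iigp1*, 3 and 110 UMIs (2.63 and 32.2 CPM), a ratio of 12.2 (4.08 to 60.2). RNA of other classes would carry 4.14 and 43.9 CPM of *Iigp1* into this gate, more than was measured, so the neutrophils' own level is not known. Kupffer cells and macrophages without *Clec4f* were close to each other, at 39.8 and 275 CPM (6.90-fold) and at 37.3 and 295 CPM (7.90-fold).

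In lymphocytes *Iigp1* was the member that differed most except in CD4 T cells. It was at 3.31 and 33.9 CPM in B cells (10.3-fold, 4.59 to 28.4), at 13.1 and 38.0 CPM in CD8 T cells (2.91-fold, 1.99 to 4.37) and at 28.2 and 103 CPM in other T cells (3.66-fold, 2.87 to 4.71). Among male CD8 T cells alone (44 and 569 cells) its log2 ratio was −0.22, the opposite direction. RNA of other classes would carry 3.11 and 28.0 CPM of this in B cells, 1.54 and 16.9 CPM in CD8 T cells and 1.79 and 22.3 CPM in other T cells. The NK cell ratio rested on 1 and 10 UMIs and had an interval of 1.02 to 312, and the 14.1 CPM measured there with anti–PD-1 was below the 18.1 CPM that other classes would carry. In CD4 T cells *Iigp1* was at 46.9 and 88.5 CPM (1.89-fold), short of 2-fold.

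*Ifi47* (*Irgd*), an IRG without a motif match in the window searched, went in opposite directions in different classes. It was higher in neutrophils, at 43.8 and 286 CPM (6.53-fold, 4.91 to 8.85), in tumor or biliary epithelial cells (14.4 and 93.9 CPM, 6.51-fold), in monocytes (95.5 and 395 CPM, 4.13-fold) and in Kupffer cells (57.1 and 193 CPM, 3.38-fold). It was lower in NK cells, at 215 and 155 CPM (ratio 0.719, 0.547 to 0.945), in CD8 T cells, at 267 and 199 CPM (0.745, 0.674 to 0.823), and in other T cells, at 269 and 214 CPM (0.797, 0.718 to 0.885). CD4 T cells had 197 and 188 CPM (0.955, 0.848 to 1.07). Each of the lower ratios is less than 2-fold, and the difference between classes was not tested.

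In Kupffer cells the members with both motifs and those with the ISRE core alone did not separate by ratio. Other classes were not compared in this way, and *Gbp4* and *Iigp1*, for which no promoter was found, were left out. With both motifs, *Gbp5*, *Gbp7*, *Igtp* and *Irgm2* had ratios of 7.02, 2.71, 4.04 and 2.11. Those of *Gbp2*, *Gbp3* and *Irgm1*, with the ISRE core alone, were 3.82, 2.47 and 3.29, and that of *Ifi47*, with neither, was 3.38.

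To compare shares of cells at equal depth, each cell's UMIs were thinned at random to 1000, which left out 2 to 83 cells per class with PBS and 2 to 161 with anti–PD-1 that had fewer. At least 1 UMI of the 10 genes was then found in 9.79% and 47.8% of tumor or biliary epithelial cells (31.1% and 69.8% without thinning). Among endothelial cells the shares were 38.6% and 88.9%, among Kupffer cells 34.3% and 67.7% and among neutrophils 24.2% and 50.4%. CD8 T cells had 57.9% and 54.5% (88.2% and 90.7% without thinning), NK cells 54.1% and 46.9%, and CD4 T cells 52.6% and 62.5%. *Iigp1* alone was found in 11.8% and 64.8% of endothelial cells and in 0.661% and 15.2% of tumor or biliary epithelial cells. No class is known to lack all 10 genes, so no class served as a background for these shares; the lowest share was that of tumor or biliary epithelial cells in the PBS library.

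Several members were often found in the same thinned cell. Cells with UMIs of 3 or more of the 10 genes made up 4.72% of endothelial cells with PBS and 50% with anti–PD-1. The same shares were 1.87% and 23.9% in Kupffer cells and 1.25% and 16.0% in neutrophils. In neutrophils of the anti–PD-1 library the members were unevenly spread, with a median of 1 UMI of the 10 genes per cell, a 75th percentile of 2 and a 90th percentile of 7. In endothelial cells of that library the median was 4 and the 90th percentile 9.7. In CD8 T cells the share with 3 or more members was 5.51% and 8.34%.

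**Figure D3:**
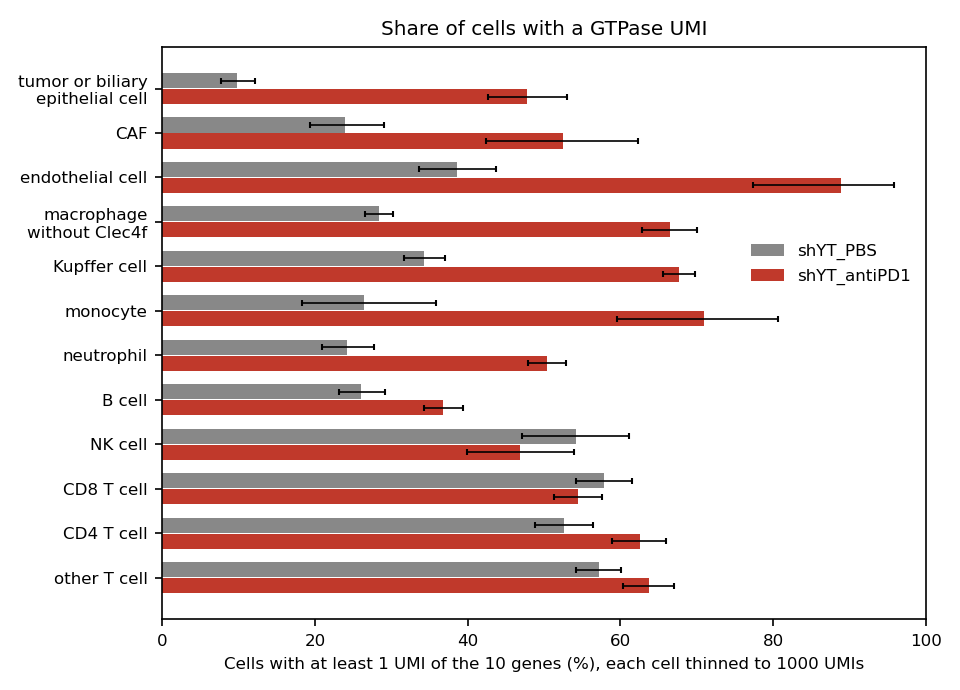
Share of cells (percent) with at least 1 UMI of the 10 GTPase genes after each cell was thinned to 1000 UMIs, by class, in the shYT_PBS (grey) and shYT_antiPD1 (red) libraries. Bars start at 0 and whiskers are exact 95% binomial intervals. Red bars are longer in the 7 upper classes, up to 88.9% in endothelial cells, and differ little from grey ones in NK and CD8 T cells.

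In the non-lymphoid classes the difference between libraries was also present among male cells alone. Their summed member level differed 15.2-fold in tumor or biliary epithelial cells (11.0 to 21.5), 13.8-fold in endothelial cells (10.5 to 18.3, from 21 and 20 cells), 4.15-fold in Kupffer cells, 5.17-fold in macrophages without *Clec4f*, 8.84-fold in neutrophils (5.88 to 14.0) and 3.19-fold in CAFs. In CD8 T cells the ratio within these cells was 0.811 (0.696 to 0.951), from 44 and 569 cells, and in NK cells it was 0.739 (0.575 to 0.959), from 29 and 90 cells. It was 1.57 in CD4 T cells (1.35 to 1.83), 1.53 in B cells (1.23 to 1.92) and 1.29 in other T cells (1.16 to 1.44). Inside the PBS library, cells with *Xist* had from 0.805 times (CD8 T cells) to 1.70 times (endothelial cells, 1.30 to 2.26) the member level of cells with Y-linked UMIs. Monocytes had too few male cells with PBS (13), and the part of sex in the difference was not tested.

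RNA from other cells is part of what each gate measured. From the level that the markers of other classes had in a gate, this RNA would carry 2.11% (endothelial cells, anti–PD-1) to 32.8% (B cells, anti–PD-1) of the summed member CPM. In CD8 T cells it would carry 2.20% with PBS and 12.2% with anti–PD-1. Classes with too few cells in a library were not counted as sources in that library. Hepatocytes and mature and plasmacytoid dendritic cells were thus left out in both libraries, and cDC1, cDC2 and plasma cells with anti–PD-1 only. The estimates of the libraries therefore rest on unlike sets of sources, and RNA from hepatocytes, high in *Iigp1*, is not in them. With the estimated RNA taken off, the ratios were 11.5 in tumor or biliary epithelial, 8.32 in endothelial, 3.56 in Kupffer cells and 4.82 in neutrophils. In lymphocytes they were 1.31 in B cells, 0.764 in NK cells, 0.898 in CD8 T cells, 1.21 in CD4 T cells and 1.13 in other T cells. The count of members at least 2-fold higher went from 10 to 9 in tumor or biliary epithelial cells (*Gbp5* fell short, at a log2 ratio of 0.89), from 9 to 8 in neutrophils (*Iigp1*), from 4 to 1 in B cells and from 1 to 0 in NK, CD8 T and CD4 T cells. It was the same in the other classes.

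Other GTPase genes related to the members, in lists chosen by family along with them, were higher in part. Counts here are over every gene matched by symbol, since a gene can pass a CPM minimum through the library in which it is high. Of the 5 other GBPs, 5 were at least 2-fold higher in endothelial cells (median log2 ratio 1.98), 3 in Kupffer cells (1.17) and 1 in CD8 T cells (0.59). Of those with at least 10 CPM in the PBS library itself, 2 of 2, 2 of 3 and 0 of 3 were, with medians of 1.92, 1.17 and −0.11. In Kupffer cells *Gbp2b*, which shares 3′ sequence with *Gbp2*, was at 51.7 and 245 CPM, *Gbp6* at 4.30 and 26.5 CPM and *Gbp8* at 86.1 and 200 CPM, and *Gbp9* had the lowest ratio among those that reached 10 CPM in either library, 1.40 (1.25 to 1.56). Of the 11 other IRGs, 7 were 2-fold higher in endothelial cells (1.25), 3 in Kupffer cells (0.36) and 0 in CD8 T cells (0.09). With at least 10 CPM in the PBS library 3 of 4, 1 of 5 and 0 of 4 were, with medians of 1.96, 0.36 and −0.40. *Tgtp2*, which has the motif arrangement of *Igtp*, was at 8.85 and 82.1 CPM in Kupffer cells, *Tgtp1* at 1.55 and 14.7 CPM and *Gm4951* at 54.7 and 127 CPM. *9930111J21Rik2* stood at 185 and 174 CPM there, so not all IRG genes differed. The very large GTPase genes *Gvin1* and *Gm4070* did not reach 2-fold in Kupffer cells, at 6.27 and 10.1 CPM and at 8.68 and 15.5 CPM. In endothelial cells *Gm4070* did, at 6.61 and 50.7 CPM, from 13 and 15 UMIs, and *Gvin1* (10.7 and 23.7 CPM) fell short with 5 CPM added. One of the pair also did in macrophages without *Clec4f*, monocytes, neutrophils and B cells, and in CAFs, where neither gene reached 10 CPM.

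The IFN-γ list held the ligand, its receptor chains and the kinases, factors and inhibitors downstream. *Ifng* itself was at 56.3 and 348 CPM in CD8 T cells, where it was the 1 of 11 list genes that was 2-fold higher, and at 192 and 471 CPM in NK cells. Other T cells had *Ifng* at 84.1 and 152 CPM (1.81-fold, 1.55 to 2.12), and CD4 T cells had 108 CPM in both libraries (ratio 0.999, 0.852 to 1.17). None of the receptor and kinase genes was 2-fold different in Kupffer or CD8 T cells. In Kupffer cells *Ifngr1* had the lowest ratio of the list, at 354 and 263 CPM. The transcription factor *Irf1* (100 and 408 CPM) and the feedback inhibitor *Socs1* (15.6 and 45.3 CPM) were among the genes of the list that were 2-fold higher in Kupffer cells, and both were among its 3 highest in CAFs, endothelial cells and macrophages without *Clec4f*. In CD8 T cells *Irf1* stood at 154 and 217 CPM and *Socs1* at 105 CPM in both libraries. The list's median log2 ratio over all matched genes ran from −0.14 in neutrophils to 1.02 in monocytes. The monocyte value was that of *Ifng*, from 0 and 2 UMIs. Over list genes with at least 10 CPM in either library the median was 0.73 in monocytes. It then ran from −0.03 in NK cells to 1.00 in endothelial cells. The endothelial value depended on this minimum, which a gene can pass through the library in which it is high. In endothelial cells the median was 0.26 over all 11 matched genes. It was also 0.26 there over the 9 genes with at least 10 CPM in the PBS library itself. With that PBS minimum the medians ran from −0.14 in neutrophils to 0.73 in monocytes.

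Genes known above all as targets of type I interferon were also higher in the non-lymphoid classes. All 13 were at least 2-fold higher in tumor or biliary epithelial cells, endothelial cells, macrophages without *Clec4f* and monocytes, 12 in Kupffer cells, 11 in neutrophils and 10 in CAFs. In lymphocytes 6 of the 13 were in B cells, 5 in other T cells, 4 in NK cells and 2 in each of CD4 and CD8 T cells. The list's median was 0.37 in NK cells and 0.81 in CD8 T cells, where the medians of the 10 GTPase genes were −0.13 and 0.07. Over list genes with at least 10 CPM in the PBS library it was 0.46 and 0.82, and 2 of 6 and 1 of 7 were at least 2-fold higher. RNA carried in from other classes was not estimated for this list. *Isg15*, a ubiquitin-like modifier, was at 52.2 and 263 CPM in Kupffer cells and at 43.7 and 98.9 CPM in CD8 T cells. *Rtp4* had the lowest ratio in Kupffer cells, at 148 and 272 CPM. Many genes respond to both kinds of interferon, which cannot be told apart by these values.

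Autophagy and ubiquitin-like conjugation genes, whose products are known to place GBPs and IRGs on membranes, did not move with them as a list. None of 11 was 2-fold different in Kupffer cells (median −0.06), and medians ran from −0.16 to 0.12 over the 12 classes. Single genes differed at least 2-fold elsewhere. *Atg12* was lower in endothelial cells and monocytes, and *Traf6* higher in monocytes. In NK cells *Sqstm1* was higher and *Atg7* lower, and in CD8 T cells *Gabarapl1* was higher. *Sqstm1* had the highest ratio in Kupffer cells, at 378 and 533 CPM, and *Atg12* the lowest, at 36.1 and 26.4 CPM. Of the inflammasome partners, 3 of 8 were 2-fold higher in Kupffer cells, namely *Il1b* (156 and 838 CPM), *Nlrp3* (50.3 and 174 CPM) and *Casp4* (22.3 and 51.7 CPM), and *Aim2* had the lowest ratio (72.2 and 70.6 CPM). *Il1b* was also at 4.49 and 54.0 CPM in CD8 T cells, which are not known to make it.

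Immediate-early and heat-shock genes, which digestion of tissue can induce, also differed between the libraries. Of 14, 11 were at least 2-fold higher in CAFs (median 2.11) and in tumor or biliary epithelial cells (1.56), and 9 in endothelial cells (1.82). Both macrophage classes had 8 (1.37 without *Clec4f*, 1.23 in Kupffer cells). The GTPase medians in these classes, in the same order, were 1.64, 2.71, 2.77, 1.89 and 1.76, so both lists were higher there. In neutrophils 2 were higher and 1 was lower (0.36), while the GTPase median there was 2.17, and in CD8 T cells 4 were higher (0.74), while the GTPase median was 0.07. The part of this difference in the levels of the GTPase genes was not tested.

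**Figure D4:**
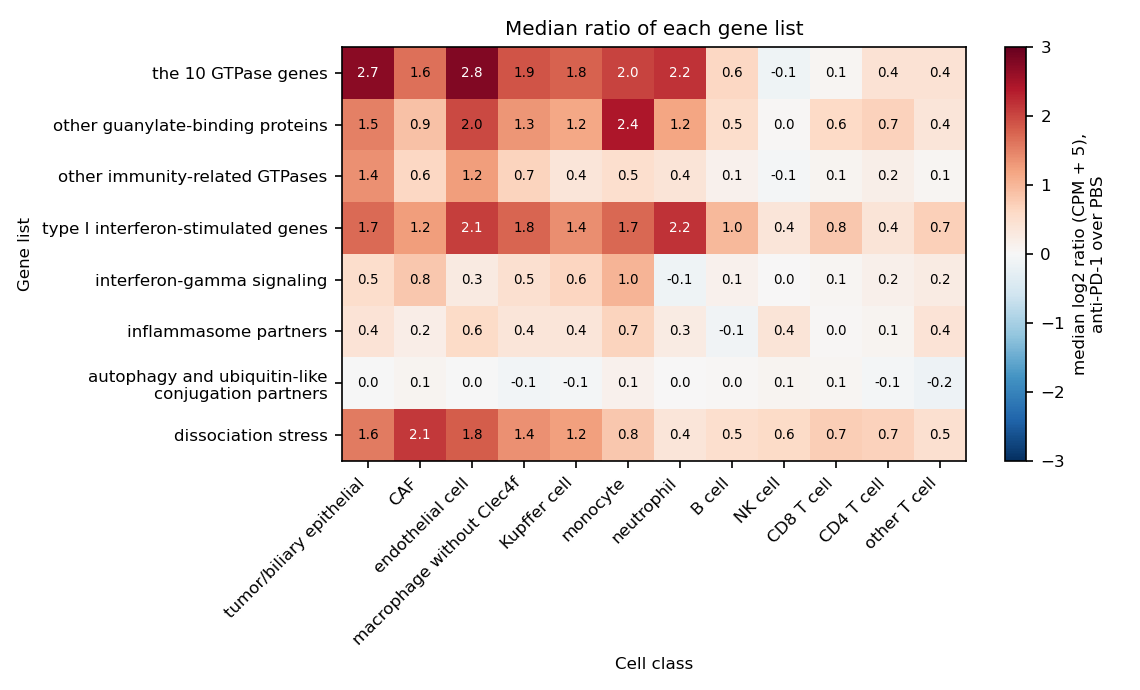
Median log2 ratio of CPM plus 5, anti–PD-1 over PBS library, for the 10 GTPase genes and 7 other gene lists (rows) in 12 cell classes (columns). Each median is over all matched genes of a list, also those below 10 CPM. With at least 10 CPM in the PBS library the median of the other GBPs in CD8 T cells was −0.11. The top row and the type I interferon row are red in the 7 left columns, the autophagy row is near 0 throughout, and the dissociation row is reddest in CAFs, at 2.1.

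Over the 24 class sums of both libraries, which share library and depth, the members varied together to unequal degrees. Pearson's r of log2(CPM + 5) of 1 member with the mean of the other 9 ran from 0.66 for *Iigp1* to 0.87 for *Igtp*. The pair most alike was *Gbp2* and *Gbp5* (r = 0.88), and the pair least alike *Ifi47* and *Iigp1* (0.33). Among 11505 other genes the pattern most like the members' mean was that of *Tgtp2* (r = 0.92), and the most alike also included *Xaf1* (0.91), *Herc6* (0.89), *Tapbp* (0.87), *H2-T23* (0.85), *Parp9* (0.83), *Ifit2* (0.80), *Zbp1* (0.80) and *Ifi35* (0.79). *Tgtp2* was at 14.2 and 196 CPM in endothelial cells and at 33.1 and 38.8 CPM in CD8 T cells. *Tapbp*, the peptide-loading protein tapasin, was at 118 and 403 CPM in endothelial cells and at 138 and 142 CPM in CD8 T cells.

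In cells that no gate took, the 10 genes together were at 561 and 1655 CPM, a ratio of 2.95, and over all kept cells at 534 and 1606 CPM (3.01-fold). Classes with fewer than 50 cells in a library are given here by their sums. These were cDC1 (73 and 38 cells, 161 and 768 CPM), cDC2 (112 and 28 cells, 315 and 859 CPM), mature dendritic cells (40 and 22 cells, 829 and 989 CPM), plasmacytoid dendritic cells (44 and 25 cells, 474 and 523 CPM), plasma cells (66 and 31 cells, 92.5 and 311 CPM) and hepatocytes (39 and 5 cells, 514 and 4841 CPM).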

How the data were processed

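Deposited gene-by-barcode tables held raw UMI counts that the authors made with the kit maker's software, aligned to mm10, for 2 libraries, 1 per group. Its version, the gene annotation and use of strand are not given in the sources used here. The submitters' processing notes also name Seurat 4.3, used for later steps; the values deposited are whole numbers. Identifiers of 32445 of 32589 genes (99.6%) were in GENCODE vM21.

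Counts were filtered, gated with 15 marker lists and summed per class and library with Python 3.11.15, numpy 2.4.6, scipy 1.17.1 and pandas 2.3.3, and figures were drawn with matplotlib 3.10.9. CPM have exact 95% Poisson intervals, ratios conditional binomial ones. Genes with at least 10 CPM in either library were tested against the 2-fold limit. There were no p-values. Scrublet in scanpy 1.11.5 marked no doublets with its automatic threshold. A score above 0.25, chosen after the scores were seen, marked 203 (1.31%) and 273 (1.67%) cells, but only 16.3% and 20.3% of simulated doublets. These cells were kept, and leaving them out was an alternative. Scripts were tested on simulated data.

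The members and lists were chosen with earlier results of these data known, and the rule for gating after the markers. The rule for named genes was the 10 members, the 3 highest and 1 lowest gene of each list in Kupffer cells, and the 10 genes of most like pattern; not every list gene it gives is printed. The text also names, chosen after their values were seen, genes outside this rule. *Gbp11*, *Gm12250*, *Mx1*, *Mx2* and *Gm17757* were not matched by symbol. One gene that the rule names is not reported here.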

Additional observations from a re-analysis of the deposited data

Results flagged for a closer look

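*Ifi47* was the member whose interval lay below 1 in a lymphocyte class, and no other of the 10 had such an interval in any of the 12 classes, while its ratio was above 1 in the non-lymphoid classes. The ratio of the anti–PD-1 to the PBS library was 0.719 in NK cells, 0.745 in CD8 T cells and 0.797 in other T cells, against 6.53 in neutrophils. The interval in NK cells was 0.547 to 0.945, and after division by the median ratio over genes in that class, 0.924, it would include 1. With 1 library per group, the difference between classes was not tested.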

How the results depend on the processing

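No paired analysis was possible because each group was 1 library. Under the alternatives, 151 of 166 counts of members at least 2-fold higher stayed within 1.5 times the value given above and 15 did not, all in lymphocytes. With 20 CPM added in place of 5 the counts were 1 in B cells and 0 in NK, CD8 T and CD4 T cells. Without an upper limit on detected genes CD4 T cells had 0. Among male cells the counts were 2 in NK, 0 in CD8 T and 2 in CD4 T cells. CD4 T cells had 3 when cells were thinned to 1000 UMIs before gating. B cells had 2 with the mean of each cell's CPM and 2 with a marker share of 1.5 times, and with RNA of other classes taken off B cells had 1 and NK, CD8 T and CD4 T cells 0. The last 2 alternatives were chosen after the data were seen. Of 1660 member ratios, 2 changed sign after having been at least 2-fold: *Gbp7* in CAFs with at most 1 marker of any other class (−0.39, from 140 and 32 cells) and *Iigp1* in male CD8 T cells (−0.22, from 44 and 569 cells). The cause was not tested. Of 166 members' medians, 110 moved by no more than the counting error of the summed ratio and 56 by more. They stayed at 1.26 or above in the non-lymphoid classes, but changed sign in NK cells (−0.29 to 0.22) and in CD8 T cells (−0.18 to 0.14). Scaling by the median ratio over genes raised log2 ratios by 0.22 in neutrophils and by 0.12 or less elsewhere, with CAFs 0.02 lower. In classes of 60 to 129 cells, counting error limits single members. Monocytes could not be run with that marker limit or in male cells, having under 20 cells. Shares of cells moved in 46 of 48 runs at other depths. The share of all genes 2-fold higher, 1.99% to 7.14% over the 12 classes, was 1.07% to 6.11% with at least 1 UMI and 2.24% to 7.33% with at least 50 CPM. It was computed with the main gates and settings only, so counts under the alternatives, male cells included, have no such share beside them.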
